A study of Mus musculus with 10 samples.

Results

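The genes described here are Socs2 and 8 further genes of growth hormone signalling, namely Cish, Socs1, Socs3, Socs4, Ghr, Jak2, Stat5a and Stat5b. They are 9 of the 35705 mouse genes to which the deposited transcripts could be assigned. All 9 passed the filter on low values, a mean of 1 TPM or more, which left 13841 genes to test. TPM is the abundance of a transcript after allowing for its length, relative to a fixed total for each library. Socs2 was chosen by its lower TPM in this very comparison, so its values are given as a description with no test. The other 8 genes were taken for their place in the same pathway, with earlier results of these data known.

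The libraries came from the medial knee cartilage of 10 mice, 1 library per mouse. In 1 group were 5 wild-type control mice, and in the other 5 mice labelled Mir324-null, null for the gene of the microRNA miR-324; all were untreated. No cell type restriction of the null allele is given by the labels, nor are age, sex, strain or litter. The question was whether the lower Socs2 of the null mice was accompanied by lower values of other STAT5 target genes or other SOCS members.

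The labels call the tissue articular cartilage and the cell type chondrocyte. Of 11 chondrocyte markers, Prg4 (lubricin), Acan and Col2a1 were present in every library, while Matn1, Matn3 and Col9a1 had means under 1 TPM. The libraries also held blood and bone transcripts. Haemoglobin genes took up 11.2% to 19.7% of the TPM of wild-type and 15.8% to 26.2% of null libraries. Markers of osteoblasts and osteocytes summed to 7224 to 14763 TPM across wild-type and 3685 to 6999 TPM across null libraries, and the genotypes did not overlap. Much of this sum was Bglap and Bglap2, with wild-type means of 3577 and 3272 TPM beside a mean sum of 10721 TPM. In such bulk tissue, fewer cells of a type and less RNA per cell cannot be told apart.

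Growth hormone binds its receptor, encoded by Ghr, and the receptor activates the tyrosine kinase JAK2. JAK2 phosphorylates the transcription factors STAT5A and STAT5B, which enter the nucleus and switch on target genes, among them Socs2, Cish and, in many tissues, Igf1. The SOCS proteins and CISH close the loop: they bind the receptor or the kinase through an SH2 domain and recruit a ubiquitin ligase through their SOCS box. SOCS2 is known as the brake on growth hormone action in the skeleton, since mice without it grow large.

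Mir324 gives 2 mature microRNAs, and their sequences from RefSeq (GRCm38.p6, chromosome 11, plus strand) are shown because a transcript with a site for their seed is a possible direct target in these mice. miR-324-5p lies at chr11:70012060-70012082 and miR-324-3p at chr11:70012095-70012114. Capitals mark the seed, bases 2 to 8, and the strands do not share it.
miR-324-5p: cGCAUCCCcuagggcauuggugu
miR-324-3p: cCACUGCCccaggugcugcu

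Socs2 held no site of 7 bases complementary to either seed in its longest annotated 3′ UTR of 1163 bases. Of the 9 genes, 4 held 1 site each: Socs1 and Stat5a for miR-324-5p, and Cish and Ghr for miR-324-3p. Socs3, Socs4, Jak2 and Stat5b held none for either strand. Among 12592 tested genes with a 3′ UTR, 8.50% held a miR-324-5p site and 15.4% a miR-324-3p site. The sites are printed with 9 bases on either side from GRCm38, in the direction of the transcript, and capitals mark the 7 complementary bases. They lie at chr16:10783723-10783729 (minus strand) for Socs1, chr11:100885077-100885083 (plus) for Stat5a, chr9:107302391-107302397 (plus) for Cish and chr15:3319509-3319515 (minus) for Ghr.
Socs1, miR-324-5p site: gaagtcttcGGGATGCtggggggag
Stat5a, miR-324-5p site: ggaagcagaGGGATGCtttttatat
Cish, miR-324-3p site: ctcttcctgGGCAGTGggtagatca
Ghr, miR-324-3p site: ctgtatagtGGCAGTGattgtctgt

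The Ghr site was the only one of the 4 followed by an A, the base that lengthens the match to an 8mer. A match of letters is a description and does not show binding. The log2(TPM + 1) differences of the 4 genes, null minus wild-type, were -0.58 for Ghr, -0.33 for Socs1, -0.11 for Cish and 0.099 for Stat5a. The site lay in transcripts holding 100% of Socs1 TPM and between 87.7% and 99.8% of Stat5a TPM. For Ghr it lay in Ghr-201 and a minor form, Ghr-208, with 49.1% to 63.6% of TPM. For Cish the only coding transcript with it was Cish-204, which was above 0 in 1 of 10 libraries; the annotated 3′ UTR of Cish-201, the main coding form, does not hold it.

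The other sequence that bears on these genes is the palindrome TTCNNNGAA, the core of the element bound by STAT5, which reads the same on both strands. RefSeq promoter windows, from 250 bases before to 50 bases after a gene's start, were matched for 8 of the 9 members, with Socs2 the missing entry. The palindrome occurred in those of Cish, where it was found 2 times, and Socs3, where it was found once. Among 32851 promoter windows, 8.30% held at least 1 copy and 0.457% at least 2. The stretches around these copies are shown with the palindromes in capitals, at chr9:107296654-107296683 (plus strand) for Cish and chr11:117969502-117969530 (minus strand) for Socs3, both GRCm38.p6.
Cish: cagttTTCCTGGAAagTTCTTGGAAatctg
Socs3: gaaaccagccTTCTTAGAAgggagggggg

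The copies in Cish began at bases 251 and 262, just after the start on which the window is set. The copy in Socs3 began at base 97, upstream of the start of its window. In the GENCODE annotation, exon 1 of Cish-201 runs from chr9:107296026 to 107297034, so both Cish copies lie inside it. No match elsewhere says only that these letters were not in that window.

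Socs2 (ENSMUSG00000020027, GRCm38 chr10:95385362-95417180, minus strand) encodes suppressor of cytokine signalling 2. It measured 15.4, 12.4, 9.11, 12.2 and 11.8 TPM in the wild-type mice 1 to 5 and 6.44, 6.44, 7.78, 7.17 and 6.68 TPM in the null mice 1 to 5. All 5 null mice lay below all 5 wild-type mice, and wild-type mouse 1 was the highest. The means were 12.2 ± 2.26 TPM in the wild-type and 6.90 ± 0.573 TPM in the null mice (SD, n = 5 each), a difference of -43.4%. The coefficient of variation was 8.31% in the null mice and 18.5% in wild-type mice. A choice by p favours genes with a narrow spread, so this spread is described only. On the log2(TPM + 1) scale, the difference was -0.73 (SE 0.131), and between -0.82 and -0.64 when any 1 mouse was left out. Socs2 had the smallest p of all lower genes in the comparison, which is how it was chosen. The next lower genes were Serpina1e, Gm14633, Gm11189 and Rab13, with log2 differences of -0.86, -0.96, -1.60 and -0.60. Among genes of either direction, Socs2 ranked 3. That rank depended on the processing, from 2 without wild-type mouse 3 to 28 with a replicate block.

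The comparison across all genes made no calls: 0 of 13841 genes (0%) had an adjusted p under 0.05 by limma with Benjamini-Hochberg adjustment, and no adjusted p was smaller than 0.277. With an unadjusted p under 0.05, 1011 genes (7.3%) were lower and 592 (4.28%) higher in null mice. That split, 63.1% lower, depended on scaling: it was 50.4% lower with median ratio scaling, 51.2% with quantile normalization, and 32.1% when libraries were scaled without haemoglobin genes. The median log2 difference over all genes was -0.045 unscaled and 0.035 without haemoglobin. In 147 genes (1.06%) every null library lay below every wild-type library, and in 122 genes (0.881%) every one lay above.

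Against this background, 0 of the 9 members were called. At an unadjusted p under 0.05, 2 were lower, Ghr and the gene chosen on that value, Socs2, and 0 were higher. When libraries were scaled without haemoglobin genes, 1 was higher, Jak2. Among the 8 members other than Socs2, 5 estimates were below 0 and 3 above, as 8307 of the 13841 genes tested were below 0, with a median of -0.061 beside the -0.045 of all genes. None of these 8 separated the genotypes without overlap.

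**Figure D1:**
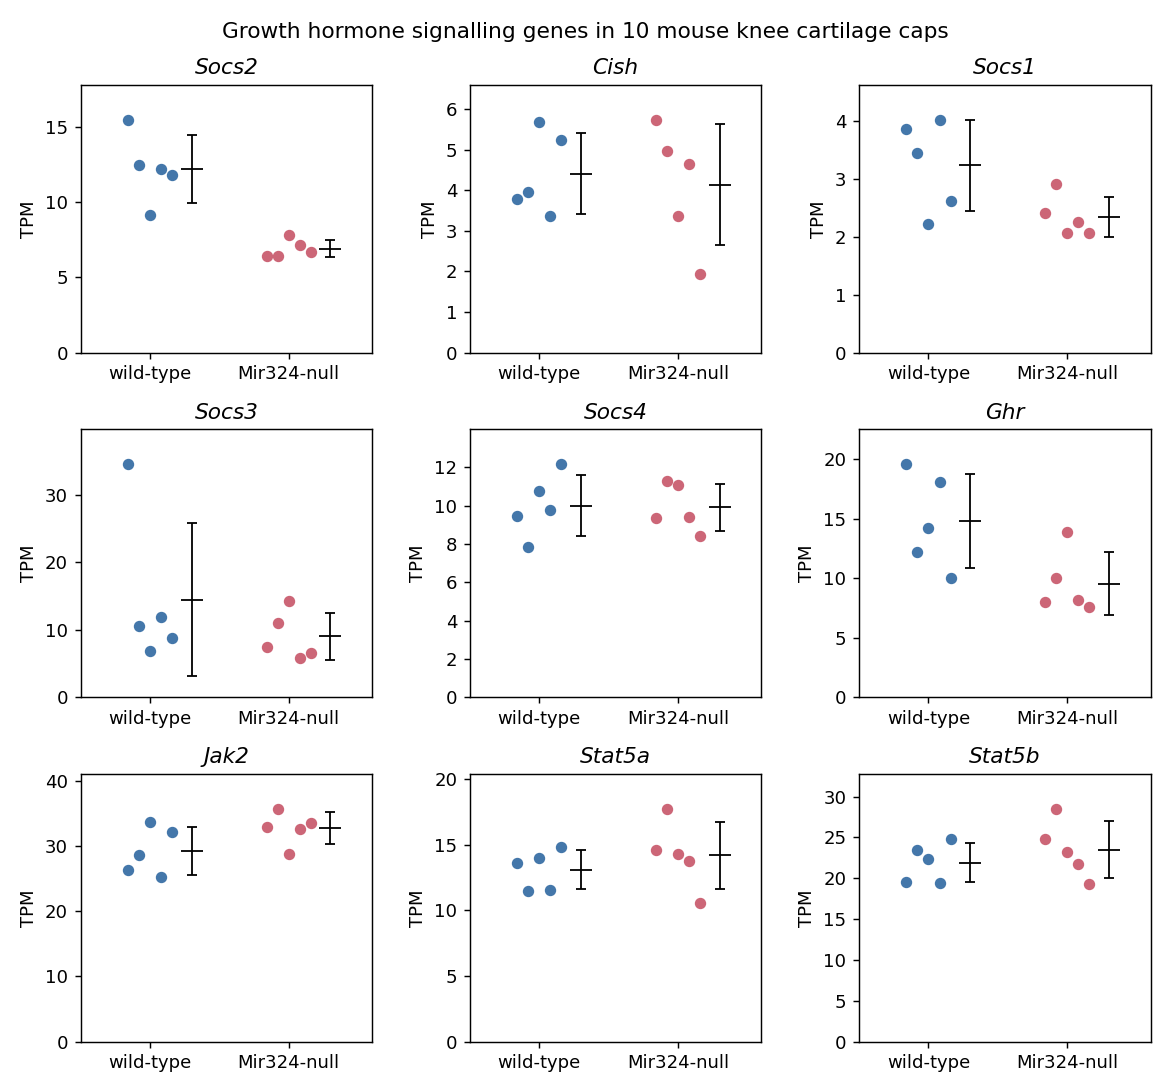
TPM of the 9 genes in each mouse (y axis, from 0), wild-type in blue and Mir324-null in red, with the mean and SD of 5 mice as a black bar beside the points. The genotypes do not overlap for Socs2, at 9.11 to 15.4 against 6.44 to 7.78 TPM, and overlap for the other 8 genes.

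Cish (ENSMUSG00000032578, chr9:107296026-107302784, plus strand) is the family member most like Socs2 in sequence and, as an immediate STAT5 target, the usual second readout of the pathway. Its values were 3.79, 3.95, 5.69, 3.36 and 5.25 TPM in the wild-type mice and 5.73, 4.96, 3.37, 4.66 and 1.94 TPM in the null mice. The highest and the lowest library were both null, and 3 of the 5 null mice lay above the wild-type mean. The means of 4.41 ± 1.0 and 4.13 ± 1.49 TPM differed by -0.11 (SE 0.224) on the log2 scale, with limma's adjusted p = 0.916 and an exact permutation p of 0.698. The 95% interval of that difference, not adjusted for the number of genes, ran from -0.60 to 0.38. It includes differences in either direction, and whether Cish and Socs2 differed in their response was not tested. The estimate turned to 0.073 without null mouse 5, the library with the highest haemoglobin share (26.2%) and the fewest genes reaching 1 TPM (13386).

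Socs1 (chr16:10782240-10785536, minus strand), an inhibitor of JAK kinases known mainly from interferon signalling, had the lowest level of the 9 genes. It measured 3.86, 3.44, 2.22, 4.02 and 2.61 TPM in the wild-type mice and 2.41, 2.91, 2.07, 2.25 and 2.07 TPM in the null mice. All null mice were below the wild-type mean, and the 2 lowest lay below the wild-type range. The difference was -0.33 (SE 0.158, 95% interval -0.67 to 0.02), with limma's adjusted p = 0.460 and an exact permutation p of 0.0714.

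Socs3 (chr11:117966079-117970047, minus strand) is the STAT3-induced brake on receptors of the interleukin-6 family. It measured 34.6, 10.5, 6.84, 11.9 and 8.73 TPM in the wild-type mice and 7.42, 11.0, 14.2, 5.83 and 6.59 TPM in the null mice. Wild-type mouse 1 stood far above the rest, and the other 9 mice were intermixed. The difference of -0.47 (SE 0.370, 95% interval -1.27 to 0.34; limma's adjusted p = 0.694; exact permutation p = 0.357) came to -0.11 without that mouse. The spread of Socs3 was wide, and its interval includes 0.

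Socs4 (chr14:47276931-47296102, plus strand), a more distant SOCS member linked to epidermal growth factor receptor signalling, ranged from 7.83 to 12.2 TPM in the wild-type and from 8.39 to 11.3 TPM in the null mice. Its difference of -0.0077 (SE 0.130) had a 95% interval from -0.29 to 0.28, a limma adjusted p of 0.991 and an exact permutation p of 0.952. The sign of so small a value changed with each scaling of the libraries.

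The remaining SOCS genes were given from a list of 3. Socs5 measured 9.34, 7.44, 7.20, 8.32 and 6.60 TPM in the wild-type mice and 5.94, 7.33, 6.75, 5.50 and 5.56 TPM in the null mice, so that 3 null mice lay below the wild-type range. Its difference was -0.28 (SE 0.124), with limma's adjusted p = 0.425 and an exact permutation p of 0.0476. Socs6 and Socs7 had estimates of -0.21 and -0.13, with means of 12.6 and 4.30 TPM in the wild-type mice. All 3 estimates were below 0, as were 8307 of all 13841 genes tested, and none was called. Across the partners that make the SOCS box a ubiquitin ligase, 1 of 5 was lower at an unadjusted p under 0.05, beside 7.3% of all genes tested. That was Rnf7, the RING protein paired with cullin 5, at 66.6 ± 5.27 TPM in the wild-type and 57.4 ± 5.10 TPM in the null mice (-0.21, SE 0.0896; limma's adjusted p = 0.399; exact permutation p = 0.0238). Cul5 itself had an estimate of -0.0018. Socs5 and Rnf7 were named for their unadjusted limma p, so their exact p is not a second test.

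Ghr (ENSMUSG00000055737, chr15:3317760-3583492, minus strand) encodes the growth hormone receptor, the entry point of the pathway. It measured 19.6, 12.2, 14.2, 18.1 and 10.0 TPM in the wild-type mice and 7.98, 10.0, 13.9, 8.21 and 7.55 TPM in the null mice. Of the null mice, 4 lay below the wild-type range, 1 of them by a narrow margin, and null mouse 3 lay among the wild-type values. The means were 14.8 ± 3.98 and 9.54 ± 2.62 TPM. The log2 difference of -0.58 (SE 0.201, 95% interval -1.02 to -0.14) had an exact permutation p of 0.0317, but limma's adjusted p was 0.338 and Ghr was not called. Leaving out any 1 mouse kept the estimate between -0.71 and -0.48, and the other scalings between -0.53 and -0.50.

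Ghr was represented mainly by a pair of coding transcripts. The longer, Ghr-201, has 1950 coding bases and stood at a mean of 7.83 TPM in the wild-type and 5.50 TPM in the null mice. The shorter, Ghr-203, has 891 coding bases and stood at 6.13 TPM in the wild-type and 3.72 TPM in the null mice. Alternative splicing of the mouse receptor gene is known to yield a truncated, secreted growth hormone binding protein. Both transcripts had lower means in null mice, and neither was tested singly.

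Jak2 (chr19:29251828-29313080, plus strand), the kinase bound to the receptor, was the most abundant of the 9 genes. It measured 26.4, 28.7, 33.7, 25.3 and 32.2 TPM in the wild-type mice and 32.9, 35.7, 28.8, 32.7 and 33.6 TPM in the null mice. Its difference of 0.16 (SE 0.103, 95% interval -0.06 to 0.39) was not called by limma (adjusted p = 0.595), and the exact permutation p was 0.111.

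Stat5a (chr11:100859351-100885169, plus strand) and Stat5b (chr11:100780731-100850724, minus strand) are neighbouring genes for near-identical transcription factors, and STAT5B is the form more closely tied to growth hormone. Stat5a measured 13.6, 11.5, 14.0, 11.6 and 14.8 TPM in the wild-type and 14.6, 17.7, 14.3, 13.7 and 10.6 TPM in the null mice. Stat5b measured 19.5, 23.4, 22.3, 19.5 and 24.9 TPM in the wild-type and 24.8, 28.5, 23.3, 21.8 and 19.3 TPM in the null mice. For both, the highest and the lowest library were null mice 2 and 5. The differences were 0.099 (SE 0.134, 95% interval -0.19 to 0.39) for Stat5a and 0.093 (SE 0.118, 95% interval -0.16 to 0.35) for Stat5b. Limma's adjusted p was 0.858 and 0.845, and the exact permutation p 0.540 and 0.484. Reads shared by so similar a pair may be divided between them with error. With libraries scaled without haemoglobin genes, the estimates for Jak2, Stat5a and Stat5b were larger, at 0.25, 0.18 and 0.18, and limma's adjusted p was 0.345, 0.516 and 0.479. The transcripts measured here say nothing of how much STAT5 protein was phosphorylated.

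**Figure D2:**
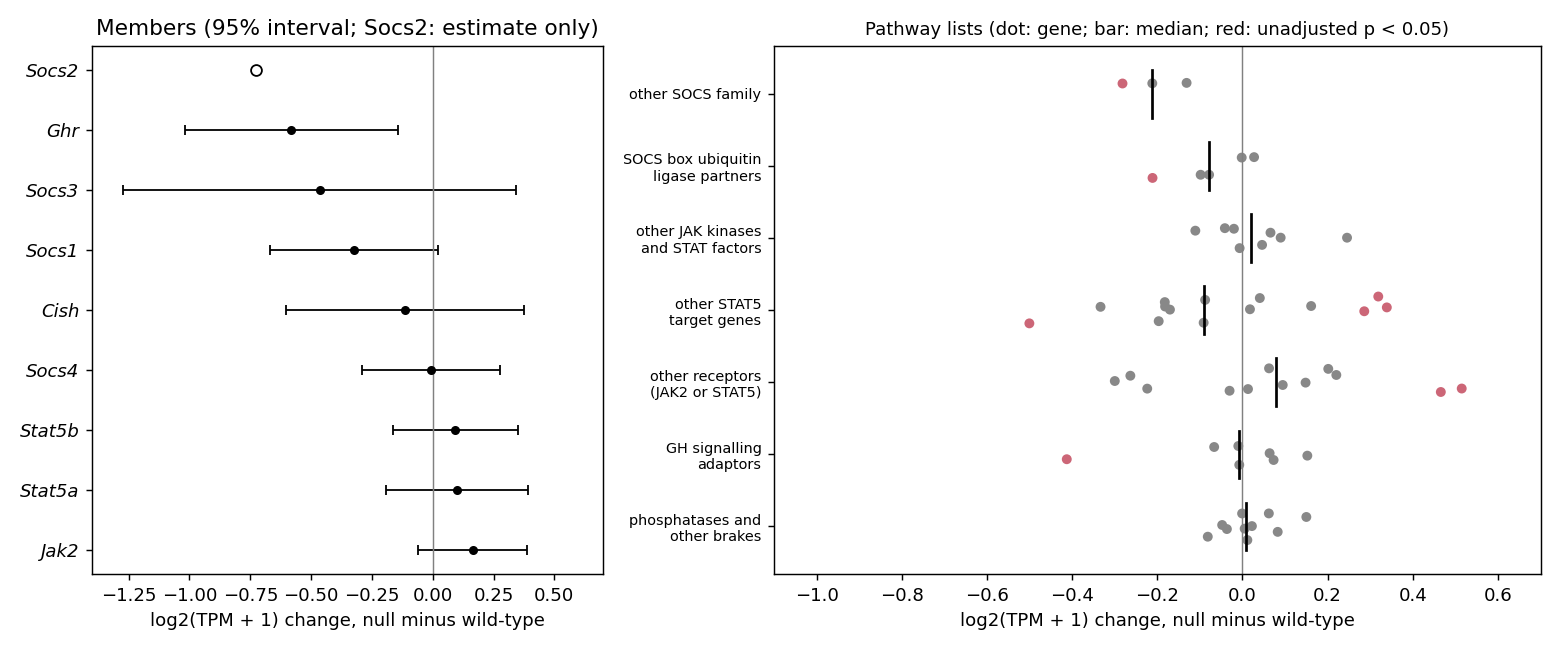
Log2(TPM + 1) difference, null minus wild-type (x axis), for the 9 genes (left; Socs2, chosen by this difference, as an open point, the others with 95% intervals unadjusted for the number of genes) and for 59 tested genes of 7 pathway lists (right; dots are genes, black bars list medians, red dots genes with an unadjusted limma p under 0.05). Of the 8 intervals, that of Ghr lies below 0 and the others include it, and list medians lie between -0.21 and 0.079.

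The wider pathway was described with 7 lists holding 61 genes, of which 59 were tested and 0 were called. At an unadjusted p under 0.05, 5 of the 59 were higher and 4 lower, and the median difference was -0.0018. Over all 13841 genes tested, 4.28% were higher and 7.3% lower, with a median of -0.045. These shares are also the background of the counts by list that follow. With libraries scaled without haemoglobin genes, 8 of the 59 were higher and 2 lower, beside 1219 and 577 of all 13841 genes. Genes of these lists given with an exact permutation p were named for their unadjusted limma p in this same comparison. Their exact p describes the same values and is not a second test.

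The list of other STAT5 target genes bears most directly on the question. Of 15 genes, 14 were tested, with a median of -0.089 and a range from -0.50 to 0.34. With an unadjusted p under 0.05, 3 were higher and 1 lower, beside 4.28% and 7.3% of all genes tested. Igf1, the growth factor through which much of growth hormone action on the skeleton runs, measured between 20.7 and 32.9 TPM in the wild-type and between 24.0 and 34.0 TPM in the null mice, and its difference was 0.041. Igfals, which encodes the partner of circulating IGF1, was below the filter at a wild-type mean of 0.674 TPM.

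Il2ra, the inducible chain of the interleukin-2 receptor, was the 1 lower gene of that list. It measured 2.41, 2.50, 3.26, 3.30 and 2.84 TPM in the wild-type and 1.75, 2.71, 1.33, 1.31 and 1.70 TPM in the null mice. Null mouse 2 alone lay inside the wild-type range. The difference was -0.50 (SE 0.162; limma's adjusted p = 0.324; exact permutation p = 0.0238).

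The 3 higher genes were Bcl2l1, Tfrc and Myc. Bcl2l1, which encodes the survival protein BCL-XL, stood at 69.5 ± 10.3 TPM in the wild-type and 86.4 ± 7.97 TPM in the null mice (0.32, SE 0.116; limma's adjusted p = 0.350; exact permutation p = 0.0238). Tfrc, the transferrin receptor that brings iron into erythroid precursors, stood at 144.5 ± 28.9 and 180.1 ± 9.64 TPM (0.34, SE 0.132; limma's adjusted p = 0.369; exact permutation p = 0.0159). Myc, a driver of cell growth, stood at 25.0 ± 4.22 and 30.6 ± 3.18 TPM (0.29, SE 0.125; limma's adjusted p = 0.416; exact permutation p = 0.0714). Bcl2l1 and Tfrc are strongly expressed by red cell precursors.

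Among receptors that signal through JAK2 or STAT5, 12 of 13 were tested, 2 were higher at an unadjusted p under 0.05 and 0 lower, and the median was 0.079. Epor, the erythropoietin receptor, measured 28.4, 27.0, 41.9, 29.7 and 31.9 TPM in the wild-type and 42.0, 43.2, 47.0, 46.3 and 48.3 TPM in the null mice. Every null mouse lay above every wild-type mouse, although wild-type mouse 3 came within a fraction of a TPM of null mouse 1. Its difference of 0.51 (SE 0.116) was the farthest from 0 of the 59 genes at a pseudocount of 1, with limma's adjusted p = 0.277 and an exact permutation p of 0.00794, the smallest that 5 against 5 mice allow. At a pseudocount of 0.1, Il2ra (-0.71) and Irs1 (-0.66) were farther from 0 than Epor (0.53). Prlr, the prolactin receptor and closest relative of Ghr, was below the filter at a wild-type mean of 0.165 TPM.

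Markers of red cell precursors moved in the same direction as these genes. Of 7 erythroid markers, 4 were higher at an unadjusted p under 0.05, beside 4.28% of all genes tested, and 0 were lower. Their sum ranged from 112640 to 198844 TPM in the wild-type and from 159238 to 263631 TPM in the null libraries. The part of these cells in the values of Epor, Tfrc and Bcl2l1 was not tested.

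Of 7 adaptors of growth hormone and insulin signalling, 1 had an unadjusted p under 0.05. This was Irs1, a docking protein of the insulin and IGF1 receptors, at 2.32, 1.77, 1.45, 2.04 and 1.97 TPM in the wild-type and 0.941, 1.46, 1.73, 0.959 and 0.898 TPM in the null mice (-0.41, SE 0.160; limma's adjusted p = 0.368; exact permutation p = 0.0238). Irs2 had an estimate of -0.0097. The lists of other JAK kinases and STAT factors (8 genes, median 0.020) and of phosphatases and other brakes (10 genes, median 0.0083) held no gene with an unadjusted p under 0.05. Jak1, Tyk2 and Stat3 had estimates of 0.046, 0.066 and -0.11, and Ptpn11 and Cbl 0.15 and 0.022.

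The Socs2 values were also divided by transcript, as a description. Of 14 Socs2 transcripts in the table, 4 share the same coding sequence of 594 bases and differ in their first exons and ends, while 4 of the 14 were at 0 in every library. Summed over the coding 4, abundance was 13.1, 10.9, 7.84, 9.83 and 10.5 TPM in the wild-type and 4.65, 5.90, 7.14, 6.66 and 6.02 TPM in the null mice. In this sum every null mouse lay below every wild-type mouse, with means of 10.4 ± 1.88 and 6.08 ± 0.940 TPM. These transcripts made up 85.5% ± 3.25 of Socs2 TPM in the wild-type and 87.8% ± 8.73 in null mice. Their separation thus largely repeats the gene value by which Socs2 was chosen. The other Socs2 transcripts summed to 1.78 ± 0.567 TPM in the wild-type and 0.825 ± 0.542 TPM in the null mice. The lower gene value lay both in the protein-coding forms and in the remainder.

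Between the coding transcripts the estimates were unsteady. Socs2-201 was at 2.11, 5.76, 7.84, 7.98 and 2.59 TPM in the wild-type mice and at 1.98, 0.964, 0, 0 and 2.90 TPM in the null mice. Socs2-214 was at 10.9, 3.24, 0.0062, 1.85 and 7.22 TPM in the wild-type and at 2.67, 4.94, 7.14, 6.64 and 1.53 TPM in the null mice. Within each genotype the libraries rich in the first were poor in the second. As the transcripts share most of their bases, the division between them is uncertain, and only their sum is read here.

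**Figure D3:**
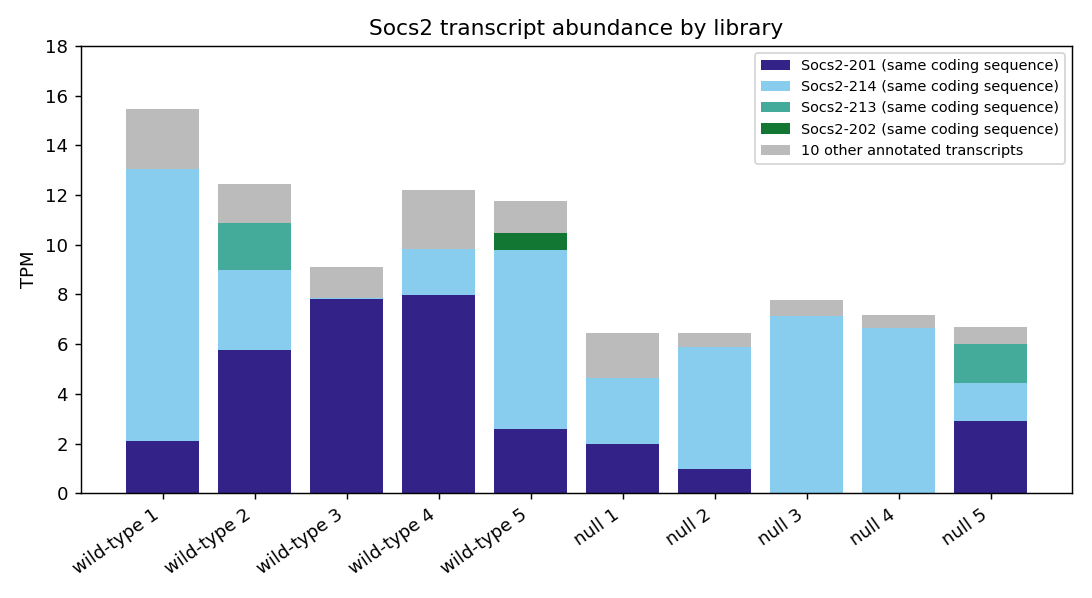
Socs2 abundance in TPM (y axis) stacked by transcript for each of the 10 mice (x axis); coloured segments share 1 coding sequence and grey is the sum of the other 10 transcripts. The coloured total is 7.84 to 13.1 TPM across wild-type and 4.65 to 7.14 TPM across null mice, while the division between Socs2-201 and Socs2-214 changes from mouse to mouse.

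TPM allows levels to be set in order across genes. By wild-type means, the order was Jak2, Stat5b, Ghr, Socs3, Stat5a, Socs2, Socs4, Cish and Socs1, from 29.2 to 3.23 TPM. Jak2 exceeded Stat5b, and Socs4 exceeded Cish, in 10 of 10 libraries. Stat5b exceeded Ghr in 9 of 10. The place of Socs3 rests on wild-type mouse 1: without it the wild-type mean of Socs3 was 9.48 TPM instead of 14.5, below Stat5a (13.0), Socs2 (11.4) and Socs4 (10.1) over the same 4 mice. Socs3 exceeded Stat5a in 2 of 10 libraries. Ghr exceeded Socs3, and Cish exceeded Socs1, in 7 of 10. Socs2 exceeded Socs4 in 3 of 5 wild-type and 0 of 5 null mice, and fell short of Stat5a in 2 of 5 wild-type and 5 of 5 null mice. This change of place restates the lower Socs2 by which the gene was chosen.

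To ask which genes varied with Socs2 from mouse to mouse, each genotype's mean was subtracted and Pearson's r was taken over the 10 libraries for 12679 protein-coding genes. These values are descriptions with no test, since the libraries share their tissue make-up. The 5 most similar genes were Plcd1 (r = 0.955, Spearman's rho = 0.842), Mapk8ip1 (0.954, rho 0.842), Nicn1 (0.950, rho 0.770), Eya4 (0.949, rho 0.867) and Loxl3 (0.938, rho 0.758). Wild-type mouse 1 was the highest library for all 5, as for Socs2, for instance at 17.5 TPM for Plcd1 against at most 10.0 TPM elsewhere. It was also an extreme library as a whole, with the lowest haemoglobin share (11.2%) and the most genes reaching 1 TPM (14299). Without that mouse, r was between 0.882 and 0.915 for these 5.

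Among the members, Socs3 was the most like Socs2, with r = 0.797 but rho = 0.455, and r was 0.553 without wild-type mouse 1. Socs1 followed at 0.556 and Ghr at 0.463, the latter 0.217 without that mouse. Cish had r = -0.403 and rho = -0.564. Jak2 had r = -0.767 and rho = -0.770, and kept r = -0.762 without wild-type mouse 1. Mice with more Socs2 than others of their genotype thus tended to have less Jak2 and no more Cish. By r among the 12679 genes, Socs3 ranked 384, Ghr 3156, Cish 10975 and Jak2 12463. Other genes thus lay farther out at both ends, and a relation within the pathway was not tested.

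**Figure D4:**
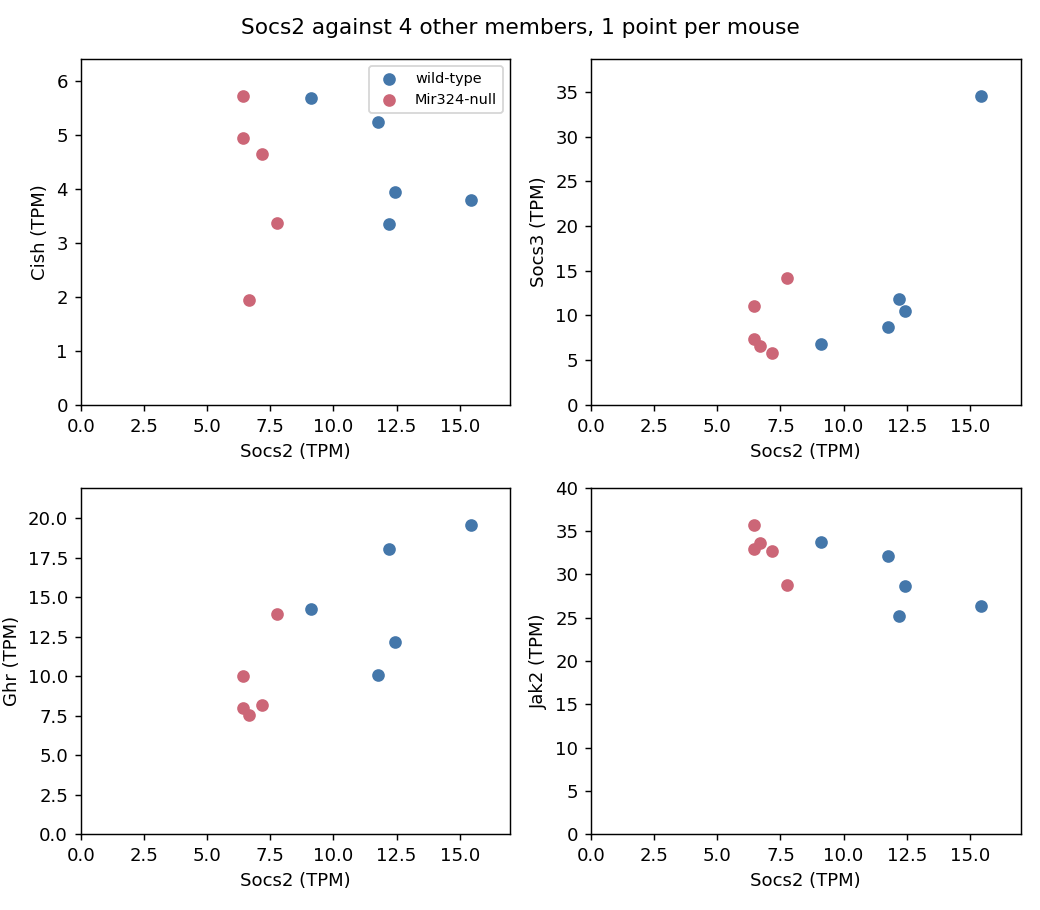
Socs2 TPM (x axes) against Cish, Socs3, Ghr and Jak2 TPM (y axes), 1 point per mouse, wild-type in blue and Mir324-null in red. Wild-type mouse 1, at 15.4 TPM Socs2, stands alone at 34.6 TPM in the Socs3 panel, and null mouse 3 is the highest null mouse for Socs2 and Ghr, at 7.78 and 13.9 TPM.

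Markers of several cell types were lower in the same mice as Socs2 and Ghr. Of 10 osteoblast and osteocyte markers, 8 were lower in null mice at an unadjusted p under 0.05 and 0 higher. All counts of markers here use that threshold, at which 7.3% of all genes tested were lower and 4.28% higher. Markers outside a count can still have lower means. Of 6 tested osteoclast markers all 6 were lower, with sums of 1435 to 3243 TPM across wild-type and 942 to 1933 TPM across null libraries. Of 8 tested chondrocyte markers 5 were lower at that threshold (median log2 difference -0.66), with sums of 1932 to 6152 and 1631 to 2923 TPM. Most of that sum was Prg4, with means of 2902 and 1737 TPM beside mean sums of 3490 and 2182 TPM. Of 5 tested adipocyte markers 4 were lower at that threshold (median -0.67), with sums of 269 to 429 and 181 to 304 TPM. B lineage markers were lower at that threshold in 3 of 8 (median log2 difference -0.44), with sums of 373 to 478 and 207 to 436 TPM. Of 7 neutrophil and 6 T and NK cell markers, 0 had an unadjusted p under 0.05. Neutrophil sums ran from 55632 to 109003 TPM in wild-type libraries and from 54585 to 111430 TPM in null ones, and T and NK cell sums from 97.4 to 165 and from 88.1 to 158 TPM. In contrast, 1 of 6 fibroblast and synovium markers was higher (sums of 64.1 to 98.5 and 66.7 to 141 TPM). Of 7 skeletal muscle markers only 2 passed the filter, none with an unadjusted p under 0.05 (sums of 13.3 to 16.1 and 14.9 to 51.4 TPM), and Myh2 was at 0 in every library. None of these markers was called. The part of skeletal cells in the lower Socs2 and Ghr values was not tested.

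**Figure D5:**
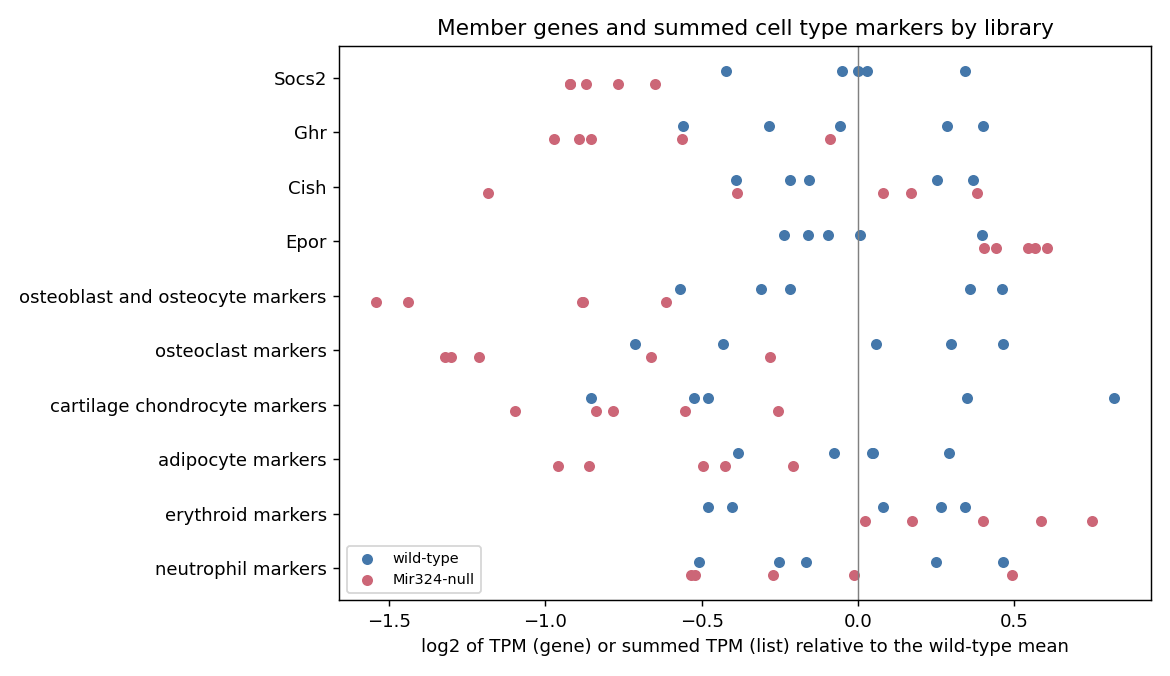
Log2 of TPM for 4 genes and of summed TPM for 6 marker lists, relative to the wild-type mean (x axis), 1 point per mouse, wild-type in blue and Mir324-null in red. The genotypes separate without overlap for Socs2 and Epor and for the osteoblast and osteocyte sum (7224 to 14763 against 3685 to 6999 TPM), and overlap for the other rows. Most of the chondrocyte sum is Prg4.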

How the data were processed

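RNA sequencing libraries of 10 knee cartilage samples, 5 per genotype, were analysed. The authors deposited 1 table of TPM values with a column per mouse and 116912 Ensembl mouse transcripts, and each column summed to 1000000. The submitters' processing notes name kallisto and DESeq2, and also the human build GRCh38, although the identifiers are those of mouse; no versions are given. Read depth is unknown, so no counting error could be given.

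Transcripts were matched without version numbers to GENCODE release M21 (GRCm38). The 1472 unmatched transcripts held 0.275% to 0.356% of TPM and were left out. TPM was summed per gene, and 13841 genes averaging 1 TPM or more were compared as log2(TPM + 1), computed from the deposited TPM; differences on this scale understate those of low genes. The comparison used limma 3.58.1 in R 4.3.3 (trend, two-sided, Benjamini-Hochberg over all genes tested, threshold 0.05), checked on simulated data. For single genes an exact permutation test, two-sided, was run over all 252 splits (smallest p 0.00794; Python 3.11.15, scipy 1.17.1). P-values weigh the difference between the genotype means against the spread between these mice. Intervals of 95% come from limma.

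Members and gene lists were chosen with earlier results of these data known. Genes named were all members, genes of 7 pathway lists with an unadjusted limma p under 0.05, and the 5 protein-coding genes with the highest Pearson's r to Socs2; other list genes named as examples (Igf1, Igfals, Prlr, Socs6, Socs7, Cul5, Irs2, Jak1, Tyk2, Stat3, Ptpn11, Cbl) were picked with their values seen. Of the listed genes, 1 entered the fits and counts and is not reported here. Alternatives changed the pseudocount (0.1 and 5), the filter (none and 5 TPM), the scaling, limma's trend, a replicate block and the mice included; the likeness and the order of levels without wild-type mouse 1 were added after seeing the data.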

Additional observations from a re-analysis of the deposited data

Results flagged for a closer look

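Among 46 groups of 5 mice (23 genes, 2 genotypes), 3 had a highest value far from the other 4, with a gap to the nearest over 0.71 of the group's range; chance gives about 1 in 20 groups. Socs3 was at 34.6 TPM in wild-type mouse 1, where the gap was 0.819 of the range. Null mouse 3 was the other, at 2.19 TPM for Mapk8ip1 (0.884) and 9.27 TPM for Loxl3 (0.751). Both of these genes were named for varying with Socs2, and null mouse 3 also had the highest Socs2 of its genotype, at 7.78 TPM.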

How the results depend on the processing

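Over 19 alternatives, Socs2, Socs1, Socs3, Ghr, Jak2, Stat5a and Stat5b kept the sign of their differences and no member was called; Cish and Socs1 were not tested at a minimum of 5 TPM. Cish lay between -0.23 and 0.073 when 1 mouse was left out, reversing without null mouse 5. Socs4 reversed with median ratio scaling (0.041), without haemoglobin (0.074) and with quantile normalization (0.061), and lay between -0.084 and 0.060 with 1 mouse left out. Genes called across the table numbered 0 to 1 when a mouse was left out: Gm37419 without wild-type mouse 3, Igkv2-109 without wild-type mouse 4 and Rpl30-ps9 without null mouse 1, each named after its values were seen. At an unadjusted p under 0.05, 1219 genes were higher and 577 lower when haemoglobin was left out of the scaling, and lower genes numbered 620 (without wild-type mouse 1; 626 without null mouse 1 and 668 without null mouse 5) to 1355 (without null mouse 3). Of the pathway genes, 8 were then higher and 2 lower without haemoglobin, 2 lower at a minimum of 5 TPM, 3 to 5 higher and 1 to 6 lower with 1 mouse left out; the 3 came without wild-type mouse 1 or 2 or null mouse 2 or 4, the 1 without null mouse 1, 4 or 5, and 2 lower without wild-type mouse 1 or 4. The replicate numbers of the labels share only a number: deviations of same-numbered mice correlated at -0.144 to 0.056. With the replicate block, 3 pathway genes were higher and 1 lower, and 0 genes were called. The cause of these shifts was not tested. Unknown read depth and 5 mice per genotype limit what could be detected.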
